A study of Ovis aries with 8 samples.

Results

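Cytosolic ribosomal protein genes encode the proteins of the ribosome in the cytoplasm. They were followed here in the fat depot that surrounds the kidney (perirenal adipose tissue), in lambs that carried the Callipyge mutation on the paternal allele only (NmatCpat) and of lambs that carried it on neither allele (NmatNpat). Members were all genes of the array whose symbol begins with RPL or RPS and a digit, together with RPLP0, RPLP2, RPSA and FAU, and without the RPS6K kinases. By this rule 70 genes on 99 probe sets were found, of 9155 genes and 24016 bovine probe sets in all. Each gene was read on the brightest of its probe sets, a probe set being the group of short probes that the array's annotation assigns to 1 transcript.

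The series compared 4 male NmatCpat lambs with 4 male NmatNpat lambs of a Dorset/Suffolk/Rambouillet cross-bred flock. All were 12 weeks of age, with 1 Affymetrix Bovine Genome Array per lamb. All lambs came from the same research flock, had not been weaned and were offered the same diet, and no group carried a transgene or received an agent. The Callipyge mutation enlarges particular skeletal muscles, and the arrays addressed the question of what differs in the fat of the same animals. The array was designed on cattle sequence and was used with sheep RNA, so a probe set that fits the sheep transcript poorly gives a low signal whatever the amount of RNA. Lambs are therefore compared for 1 probe set at a time. Where signals of different genes are ranked, the ranking is one of probe set brightness and does not measure RNA amount.

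Every cytosolic ribosome holds a large and a small subunit. Each is built from ribosomal RNA and a fixed set of proteins, most of which are needed in equal amounts. The small subunit reads the messenger RNA, the large subunit joins the amino acids, and the acidic stalk of the large subunit recruits the translation factors. Most of these transcripts begin with a pyrimidine tract that ties their translation to the TOR kinase, and they are among the most abundant messenger RNAs of nearly every tissue, adipose tissue included.

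Proteins of the standard mammalian ribosome made up 63 of the members, with 37 of the large subunit, 2 of the stalk and 24 of the small subunit. The remaining 7 members were paralogues or like-named genes, namely RPL3L, RPL7L1, RPL26L1, RPS27L, RPS4Y1, RPS19BP1 and RPL15P. Other proteins of the standard ribosome were not analysed here. A probe set of 1 ribosomal protein gene can also bind transcripts of its processed pseudogenes or paralogues, so the named gene is uncertain where such copies exist.

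The arrays differed little in overall signal, with raw median intensities between 65.3 and 72.6. The fat cell markers FABP4 and ADIPOQ, a fatty acid carrier and a hormone of fat cells, were bright in all 8 lambs. They read 13.63 to 13.74 for FABP4 and 12.81 to 13.29 for ADIPOQ on the log2 scale. Not all of the 17 fat cell markers measured were as bright. LEP read at most 5.78 and CFD 7.76 to 8.74 in the 8 lambs. Whether a poor fit of their probe sets to sheep transcripts lowered these signals was not tested. Among lists of markers of other cell types, the array of NmatNpat animal 1 stood apart on 12 neuron markers, with a mean 4.44 log2 units above the mean of the 8 arrays, and that of NmatCpat animal 4 on 13 skeletal muscle markers, at 1.16 above. The results were therefore also computed without these 2 arrays. In RNA from whole tissue, fewer cells of a type and less RNA per cell cannot be told apart.

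The ribosomal protein transcripts were among the brightest signals of the array and hardly varied from lamb to lamb or between the genotypes. The brightest probe set lay in the top 5% of all probe sets for 63 of the 70 genes, and 50 genes had a mean log2 intensity over 13, close to the highest of any probe set, 14.09. No gene was called at the thresholds of the study, which asked for more than a 1.5-fold change with an unadjusted P not above 0.05, where 2.91% of all genes were called. None had an adjusted p under 0.05 in limma, which compared each probe set between the genotypes with variances shared across all probe sets, and none had an unadjusted P of at most 0.05 at any fold change, where 3.79% of all genes did. The adjusted p ranged from 0.983 to 0.999, and the smallest unadjusted P of a member was 0.0756.

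The difference, NmatCpat minus NmatNpat, was above 0 for 44 genes and below 0 for 26, with a median of 0.02 on the log2 scale beside 0.0046 over all genes. For 57 of the 70 genes, or 81.4%, it was smaller than 0.1 in size, against 30.0% of all genes and 43.1% of the 3660 genes brighter than the upper quartile of all probe sets. The middle of the distribution ran from −0.02 at the lower quartile to 0.06 at the upper, and over all genes from −0.18 to 0.18. The 95% confidence interval lay inside a 1.5-fold change in both directions for 62 of the 70 genes and inside a 2-fold change for 68, where 25.9% of all genes had an interval inside a 1.5-fold change. Of the 62 genes with a mean level over 12, 60 had an interval inside a 1.5-fold change.

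**Figure D1:**
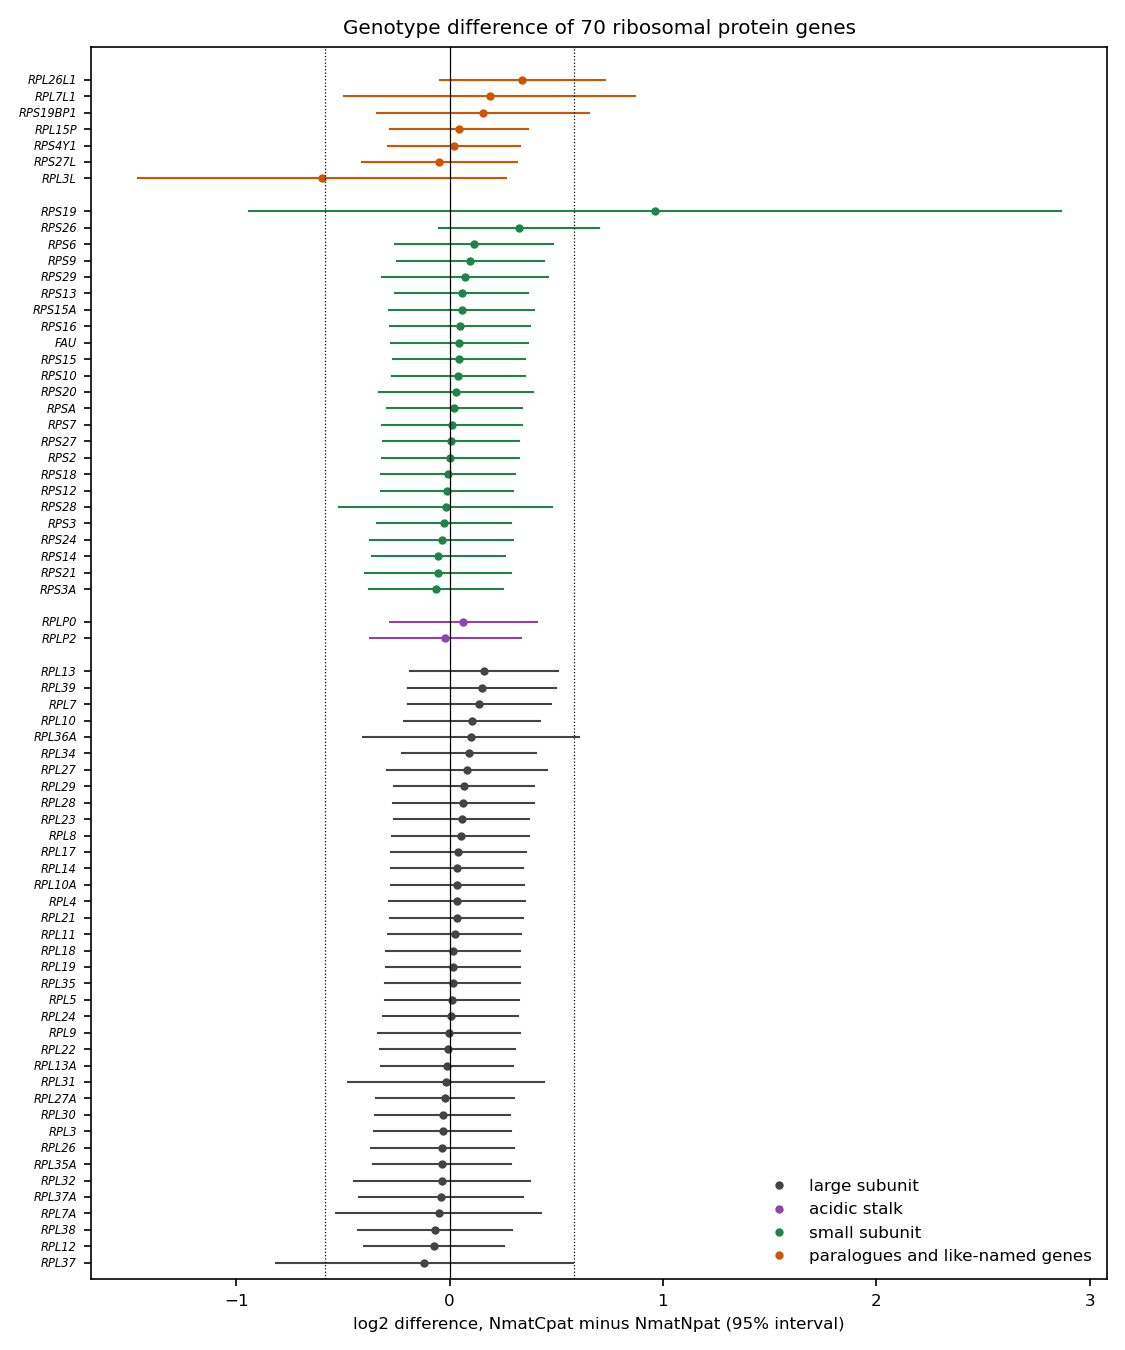
The log2 difference between the genotypes (NmatCpat minus NmatNpat) is plotted for the 70 genes by subunit, with points for the estimate, bars for limma's 95% confidence interval and dotted lines at a 1.5-fold change. Every interval includes 0, and 62 of the 70 lie within the dotted lines.

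The proteins of the large subunit were measured by 37 genes. Of these, 22 were higher in NmatCpat and 15 lower, none called, with a median difference of 0.02 and a range from −0.12 to 0.16. RPL5 and RPL11, which carry the small ribosomal RNA of the large subunit and bind MDM2 when ribosome assembly is disturbed, were flat. RPL11 read 13.52, 13.52, 13.53 and 13.56 in NmatCpat animals 1 to 4 and 13.51, 13.46, 13.50 and 13.58 in NmatNpat animals 1 to 4. The NmatCpat values lay inside the span of the NmatNpat values, and the difference was 0.02 (95% interval −0.29 to 0.34, limma adjusted p = 0.996). RPL5 differed by 0.01 (95% interval −0.30 to 0.33), with lambs of both genotypes between 13.77 and 13.90.

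RPL3, a protein close to the peptidyl transferase centre, read 13.66, 13.55, 13.62 and 13.64 in the NmatCpat lambs and 13.67, 13.64, 13.55 and 13.73 in the NmatNpat lambs. Both genotypes covered nearly the same span, and the difference was −0.03 (95% interval −0.35 to 0.29). RPL13 and RPL39 had the smallest unadjusted P values of the large subunit among the higher genes, at 0.312 and 0.342. RPL13, which lies on the surface of the large subunit, read 13.38, 13.36, 13.25 and 13.37 in the NmatCpat lambs and 13.26, 13.34, 13.08 and 13.04 in the NmatNpat lambs. NmatNpat animals 3 and 4 lay lowest and the other 2 overlapped with NmatCpat, for a difference of 0.16 (95% interval −0.18 to 0.51, two-sided exact permutation p = 0.0857, n = 4 per genotype). RPL39, one of the shortest ribosomal proteins, which lines the exit tunnel for the new chain, differed by 0.15 (95% interval −0.20 to 0.50), with overlapping genotypes.

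RPL10, which joins the large subunit last and is needed for the subunits to meet, was the only member whose genotypes did not overlap. It read 13.55, 13.60, 13.55 and 13.58 in the NmatCpat lambs and 13.52, 13.51, 13.46 and 13.37 in the NmatNpat lambs. The lowest NmatCpat lamb stood just above the highest NmatNpat lamb, and the difference of 0.11 (95% interval −0.21 to 0.42) corresponds to a 1.08-fold change. The limma adjusted p was 0.983, and the two-sided exact permutation test gave p = 0.0286, the smallest that 4 lambs against 4 allow. The other probe set of RPL10, nearly as bright at a mean level of 13.345, differed by 0.03 (95% interval −0.29 to 0.34), with overlapping genotypes. Read on the brightest probe set, genes without overlap were 1.43% of the members and 2.84% of all genes.

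Among the large subunit genes that were lower in NmatCpat, none had a difference beyond the spread between lambs. RPL12, a protein of the stalk base, read 12.75, 12.68, 12.64 and 12.83 in the NmatCpat lambs and 12.88, 12.85, 12.74 and 12.72 in the NmatNpat lambs. The genotypes overlapped in most of their range, with a difference of −0.07 (95% interval −0.40 to 0.25). RPL38 differed by −0.07 (95% interval −0.43 to 0.29). RPL37 had the lowest difference of the subunit, −0.12 (95% interval −0.81 to 0.58), on a dim probe set. Its values ran from 5.35 to 6.64, with the lowest and the highest both in NmatCpat lambs.

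The stalk was represented by RPLP0, its anchor, and RPLP2, one of the proteins that the anchor holds. RPLP0 read 13.55, 13.48, 13.55 and 13.73 in the NmatCpat lambs and 13.43, 13.40, 13.57 and 13.63 in the NmatNpat lambs. Animal 4 was the highest in each genotype and the genotypes overlapped, with a difference of 0.07 (95% interval −0.28 to 0.41). The next brightest of its 3 probe sets differed by 0.01. The dimmest, at a mean level of 6.96, differed by 0.33 (95% interval −0.09 to 0.75), with overlapping genotypes. Over the alternative settings RPLP0 ranged from −0.01 to 0.33. The 0.33 is that of the dimmest set, which was read when probe sets with names ending in _x_at or _s_at were left out. The brighter sets of RPLP0 have such names. RPLP2 differed by −0.02 (95% interval −0.37 to 0.33).

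Of the 24 genes of the small subunit, 16 were higher in NmatCpat and 8 lower, none called, with a median difference of 0.03. Leaving RPS19 aside, the differences ran from −0.06 to 0.32. RPS26, a protein at the messenger RNA exit, was the highest of these. It read 12.72, 12.69, 12.88 and 12.62 in the NmatCpat lambs and 12.46, 12.30, 12.64 and 12.22 in the NmatNpat lambs. Only NmatNpat animal 3 rose into the NmatCpat values, just above the lowest of them. The difference was 0.32 (95% interval −0.05 to 0.70), a 1.25-fold change, with a limma adjusted p of 0.983 and a two-sided exact permutation p of 0.0571 (n = 4 per genotype).

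RPS6, the substrate of the S6 kinases below TOR, read 13.29, 13.45, 13.38 and 13.50 in the NmatCpat lambs and 13.20, 13.11, 13.32 and 13.53 in the NmatNpat lambs. The highest lamb of all was NmatNpat animal 4, and the difference was 0.12 (95% interval −0.25 to 0.49). RPS3, at the entry of the messenger RNA channel, differed by −0.03 (95% interval −0.34 to 0.29). RPS3A, the lowest of the small subunit, differed by −0.06 (95% interval −0.38 to 0.25, two-sided exact permutation p = 0.0857, n = 4 per genotype).

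RPSA, which also occurs at the cell surface as a laminin receptor, read between 13.06 and 13.22 in the 8 lambs and differed by 0.02 (95% interval −0.30 to 0.34). FAU, which encodes RPS30 fused to a ubiquitin-like protein, read 13.93, 13.93, 13.78 and 13.89 in the NmatCpat lambs and 13.88, 13.89, 13.78 and 13.80 in the NmatNpat lambs. Animal 3 was the lowest in both genotypes, and the difference was 0.05 (95% interval −0.28 to 0.37).

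**Figure D2:**
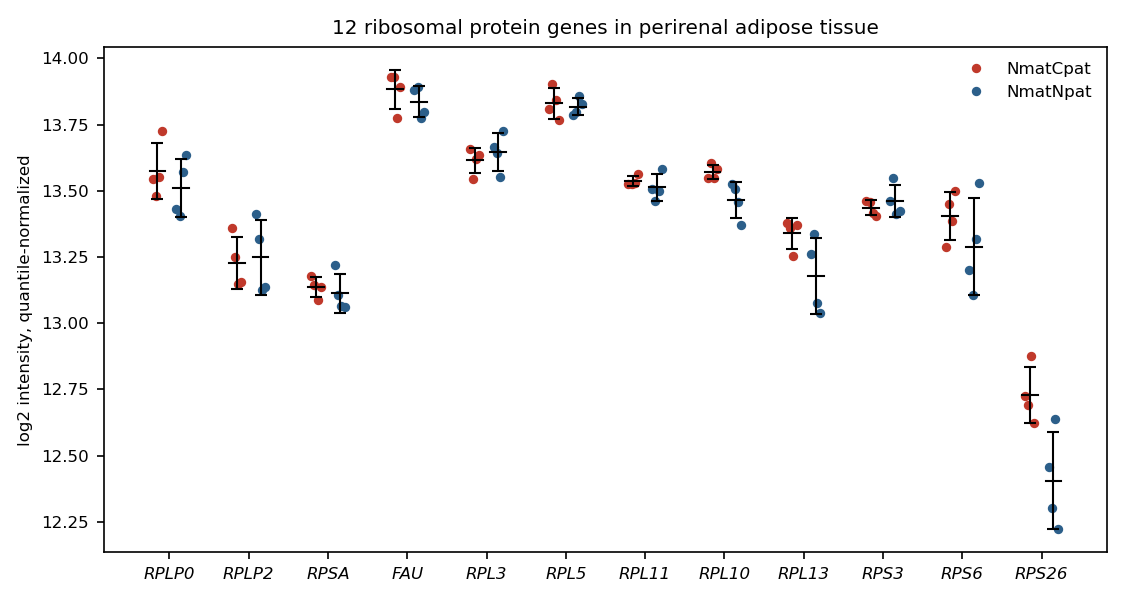
The log2 quantile-normalized intensity of 12 ribosomal protein genes is shown for each lamb as a point, with the mean of the 4 lambs of a genotype and 1 SD as bars. The genotypes overlap for every gene drawn except RPL10, and RPS26 has the widest gap between the means, 0.32.

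The paralogues and like-named genes were the most varied group, with 5 higher and 2 lower in NmatCpat, none called, a median difference of 0.04 and a median SD within genotypes of 0.164. RPL26L1, a near copy of RPL26, had the smallest P value of all members. It read 8.84, 8.81, 9.04 and 8.86 in the NmatCpat lambs and 8.42, 8.44, 8.47 and 8.85 in the NmatNpat lambs. NmatNpat animal 4 stood with the NmatCpat lambs and the other 3 lay below them. The difference was 0.34 (95% interval −0.04 to 0.73), a 1.27-fold change, with a limma adjusted p of 0.983 and a two-sided exact permutation p of 0.0857 (n = 4 per genotype). RPL26 itself differed by −0.03 (95% interval −0.37 to 0.30) on its brightest probe set. Its dimmer set, at a mean level of 6.24, differed by 0.36 (95% interval −0.04 to 0.76, two-sided exact permutation p = 0.0571), with overlapping genotypes.

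RPL3L, the striated muscle paralogue of RPL3, gave a dim signal on its single probe set. It read 5.95, 4.92, 4.26 and 4.63 in the NmatCpat lambs and 5.85, 5.80, 5.20 and 5.32 in the NmatNpat lambs. NmatCpat animal 1 was the highest of all 8 lambs and the other 3 NmatCpat lambs were below every NmatNpat lamb. The difference was −0.60 (95% interval −1.46 to 0.26, limma adjusted p = 0.983). Without NmatCpat animal 1 it was −0.94 with an unadjusted P of 0.00989, so that this lamb decided the call. NmatCpat animal 4, whose array was the highest for skeletal muscle markers, read 4.63 for RPL3L, among the lower values.

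RPS19BP1, whose product binds RPS19 and is not a ribosomal protein itself, differed by 0.16 (95% interval −0.34 to 0.65), with 7.72 to 8.50 in the 8 lambs. RPS27L, a p53-responsive paralogue of RPS27, differed by −0.05 (95% interval −0.41 to 0.31), and RPS27 by 0.0067. RPS4Y1, a name given after the Y-linked human copy of RPS4, and RPL15P, a name of pseudogene form, differed by 0.02 (95% interval −0.29 to 0.33) and 0.04 (95% interval −0.28 to 0.37). Both were bright, at mean levels of 13.26 and 13.01. The symbols are those of the annotation, and whether these probe sets read RPS4X and RPL15 transcripts of sheep was not tested.

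How much the lambs differed from each other was the other property the members shared. The SD within genotypes had a median of 0.0743 log2 units, against 0.353 over all genes and 0.226 over the genes above the upper quartile of signal, and it was under 0.1 for 44 members, against 2.82% of all genes. From the lowest to the highest of the 8 lambs, a member spanned a median of 0.22, against 1.06 over all genes, and 62.9% of members spanned under 0.3, against 2.64% of all genes. The tightest were RPL14 with an SD of 0.0237, RPL13A with 0.0284 and RPL10A with 0.0296.

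This tightness went with signal. The 62 members with a mean level over 12 had SDs between 0.0237 and 0.283, and the 8 dimmer ones between 0.136 and 1.32. Over a level of 13 there were 92 genes in all, of which 50 were members. The median SD of these members was 0.0572 and that of the 42 other genes as bright was 0.0793. A difference smaller than 0.1 was found in 46 of the 50 members, or 92.0%, and in 33 of the 42 other genes, or 78.6%. With arrays only centred on their medians, in place of quantile normalization, the median SD over 13 was 0.0987 for members and 0.125 for the other genes. The signals lay close to the top of the array's range, and whether a change in RNA amount moves the signal in proportion there was not tested.

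**Figure D3:**
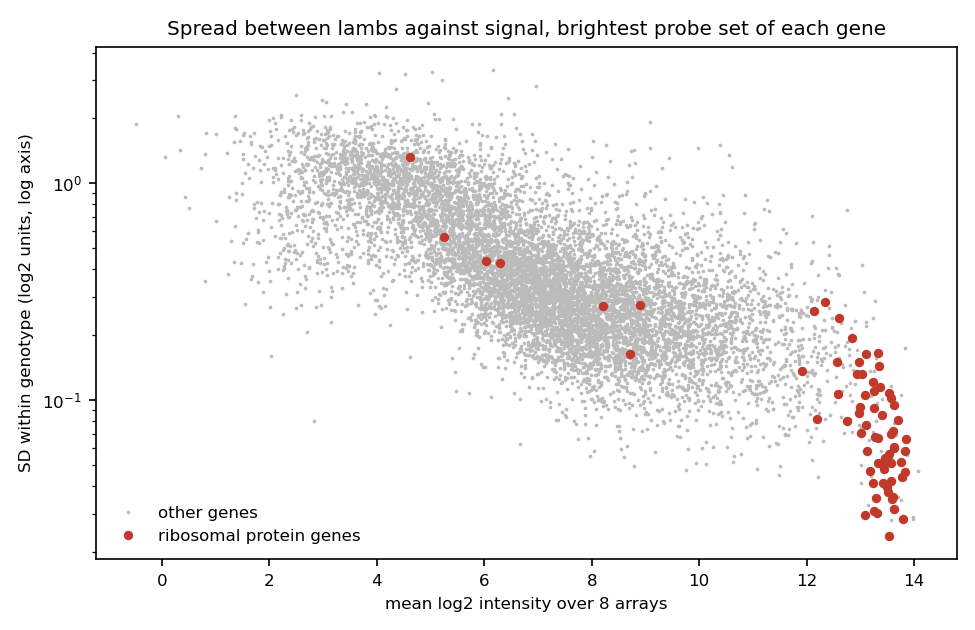
The SD within genotypes (log axis) of each gene's brightest probe set is plotted against its mean log2 intensity over the 8 arrays, with ribosomal protein genes in red and other genes in grey. Red points gather at the lower right, where 50 of 70 members have a mean over 13, and the 8 dim members lie within the cloud of other genes.

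Because the pooled variance of limma is set by all probe sets, it exceeded the members' own variance, with a median standard error of 0.141 in place of 0.0525 from the member alone. With each gene's own variance 4 members had an unadjusted P of at most 0.05, or 5.71%, namely RPL26L1, RPS26, RPL10 and RPL34, all higher in NmatCpat, where 4.97% of all genes did. With a variance that followed signal, 2 members, RPL26L1 and RPS26, had an unadjusted P of at most 0.05, where 5.26% of all genes did. None of these changes reached 1.5-fold, and no member had an adjusted p under 0.05 by either limma setting or the model with its own variances.

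RPS19, a small subunit protein mutated in Diamond-Blackfan anaemia, carried the widest difference of the small subunit on a dim probe set. It read 5.45, 3.59, 6.07 and 5.26 in the NmatCpat lambs and 5.19, 4.90, 1.87 and 4.56 in the NmatNpat lambs. The low value of NmatNpat animal 3 made most of the difference of 0.96 (95% interval −0.94 to 2.86, limma adjusted p = 0.983), and without that lamb it was 0.21. The second probe set of RPS19 read 0.84, 4.16, 3.94 and 2.34 in the NmatCpat lambs and 2.44, 2.49, 2.04 and 1.34 in the NmatNpat lambs, for a difference of 0.74 (95% interval −0.94 to 2.42), in the direction of the brightest set. The lowest and the highest lamb on it were both NmatCpat.

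More than 1 probe set was present for 19 genes, which gave 29 further probe sets. These had a median level of 6.94 and a median SD of 0.341, and 2 of them were over 12. Of the 29, 14 were higher in NmatCpat, and the differences ran from −2.45 to 0.74 with a median of −0.04. Over all 99 probe sets of the members 2 were called, where 3.93% of all probe sets were. Both belonged to RPL7L1, a nucleolar relative of RPL7, and both were lower in NmatCpat. The 2 probe sets without overlap were the brighter set of RPL10 and the dimmest set of RPL15P, at 0.45 (two-sided exact permutation p = 0.0286, n = 4 per genotype), where 2.74% of all probe sets had no overlap.

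The 3 probe sets of RPL7L1 went different ways. The brightest read 6.57, 6.47, 5.94 and 6.52 in the NmatCpat lambs and 6.87, 6.22, 5.59 and 6.08 in the NmatNpat lambs, with overlapping genotypes and a difference of 0.19 (95% interval −0.49 to 0.87). The second read 4.05, 3.36, 3.64 and 4.29 in the NmatCpat lambs and 4.77, 3.84, 5.53 and 5.78 in the NmatNpat lambs. Here 3 of the 4 NmatNpat lambs were above every NmatCpat lamb, and the difference was −1.14 (95% interval −2.16 to −0.12, limma adjusted p = 0.983, exact permutation p = 0.0857).

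The dimmest set of RPL7L1 read 1.72, 1.10, 1.25 and 4.11 in the NmatCpat lambs and 4.31, 4.51, 4.03 and 5.13 in the NmatNpat lambs. NmatCpat animal 4 stood among the NmatNpat lambs, and the other 3 lay far below. The difference was −2.45 (95% interval −3.97 to −0.93), with an unadjusted P of 0.00601, a limma adjusted p of 0.983 and a two-sided exact permutation p of 0.0571 (n = 4 per genotype). With 16 added to every intensity before the log, which shrinks differences among dim signals, it was −0.86. RPL7 differed by 0.14 (95% interval −0.20 to 0.47).

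**Figure D4:**
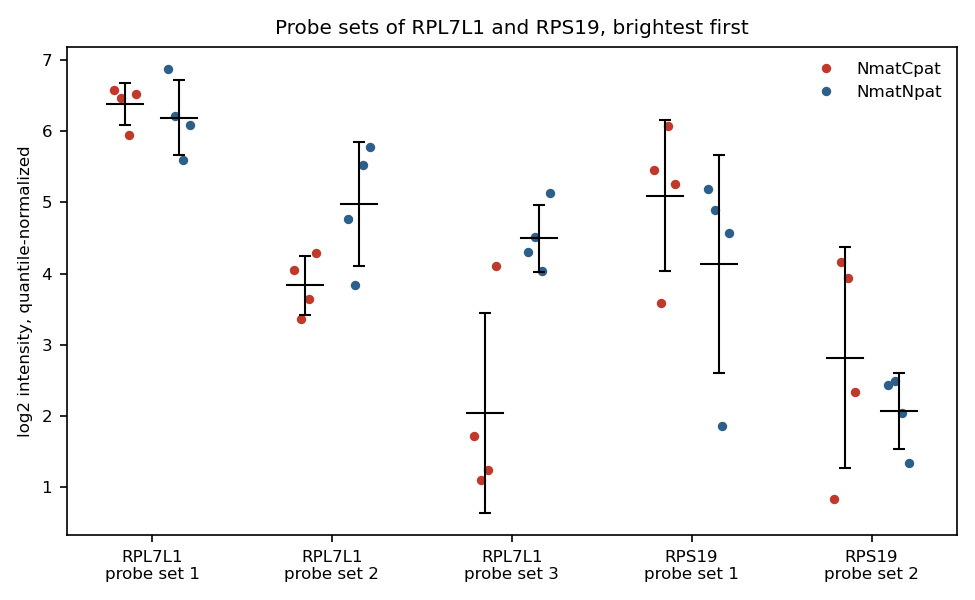
The log2 quantile-normalized intensity of the 3 probe sets of RPL7L1 and the 2 of RPS19, brightest first, is shown per lamb, with the mean and 1 SD of the 4 lambs of each genotype. Only the dimmer sets of RPL7L1 are lower in NmatCpat, by 1.14 and 2.45, while its brightest set differs by 0.19 the other way.

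From lamb to lamb the mean of the members shifted by little. The mean deviation of the 70 genes from the mean of the 8 arrays was 0.06, 0.01, −0.0052 and 0.0055 in NmatCpat animals 1 to 4, and 0.03, 0.0094, −0.10 and −0.01 in NmatNpat animals 1 to 4. NmatCpat animal 1 was the highest and NmatNpat animal 3 the lowest, and the genotypes overlapped. NmatCpat animal 1 held the highest value for 15 members, and NmatNpat animal 3 the lowest value for 21. In direction many members went the same way, with 53 of the 70 above their mean in NmatCpat animal 1 and 18 in NmatNpat animal 3. The other lambs had 27 to 46 members above the mean. Over the 62 members with a level over 12, the mean deviation of NmatNpat animal 3 was −0.04.

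NmatNpat animal 3 had the lowest mean deviation on the 17 fat cell markers measured of 19, at −0.12, and the highest on the 10 macrophage markers measured of 14 and the 9 fibroblast markers measured of 9, at 0.72 and 0.60. For the other lambs the means ran from −0.07 to 0.15 on fat cell markers, from −1.05 to 0.62 on macrophage markers and from −0.50 to 0.38 on fibroblast markers. None of the macrophage markers was called between the genotypes. Their part in the members' values was not tested. As a share of the summed raw intensity of each array, the members took 8.72% ± 0.380 (SD, n = 4) in the NmatCpat lambs. The NmatNpat lambs gave 8.55% ± 0.194 (SD, n = 4), and the ranges overlapped.

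Genes that make, load and regulate ribosomes were read from 5 further lists. Translation initiation factors (30 measured of 37) divided evenly, 15 higher and 15 lower, none called, with a median difference of 0.0036. EIF1AX, which helps the small subunit scan for the start codon, had the smallest P value of the list. It read 12.16, 12.09, 12.04 and 12.13 in the NmatCpat lambs and 11.84, 12.01, 11.81 and 11.91 in the NmatNpat lambs. All NmatCpat lambs were above all NmatNpat lambs, by little, and the difference was 0.21 (95% interval −0.12 to 0.53, limma adjusted p = 0.983, exact permutation p = 0.0286). EIF3K, a subunit of the initiation factor that binds the small subunit, was the other gene of the list without overlap, at 0.13 (95% interval −0.19 to 0.45). Genes without overlap were thus 2 of the 30, where 2.84% of all genes had no overlap.

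Elongation and termination factors (12 measured of 15) had 7 higher and 5 lower, none called, with a median of 0.01. Their median SD within genotypes, 0.0699, was as small as that of the ribosomal protein genes, 0.0743, so the small spread was not particular to the members. EEF2, which moves the ribosome along the messenger RNA, differed by 0.23 (95% interval −0.19 to 0.66), with overlapping genotypes. Of the list of TOR control of translation (20 measured of 24), 9 were higher and 11 lower, none called, with a median of −0.03. AKT2, an insulin-responsive kinase upstream of TOR, read 8.55, 8.83, 8.65 and 8.69 in the NmatCpat lambs and 8.14, 8.21, 8.0 and 8.50 in the NmatNpat lambs, taking the brightest of its probe sets. The genotypes did not overlap, with a difference of 0.47 (95% interval 0.07 to 0.86), an unadjusted P of 0.0256 and a limma adjusted p of 0.983. The 2 dimmer probe sets of AKT2 differed by 0.09 and 0.0013, with overlapping genotypes. RPS6KB1, an S6 kinase that phosphorylates RPS6, was the other gene of the list without overlap, and lay the other way. It read 8.54, 8.63, 8.48 and 8.61 in the NmatCpat lambs and 8.83, 8.88, 8.64 and 8.89 in the NmatNpat lambs. Its highest NmatCpat lamb lay just below its lowest NmatNpat lamb, and the difference was −0.25 (95% interval −0.58 to 0.09, limma adjusted p = 0.983, exact permutation p = 0.0286). In this list 2 of the 20 genes had no overlap, where 2.84% of all genes had none.

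Ribosome biogenesis factors (35 measured of 44) had 22 higher and 13 lower, none called, with a median of 0.11 that became −0.03 without NmatNpat animal 1 and NmatCpat animal 4. NHP2, a protein of the particles that pseudouridylate ribosomal RNA, read 7.87, 7.48, 8.47 and 8.42 in the NmatCpat lambs and 7.19, 6.98, 7.46 and 7.91 in the NmatNpat lambs. Only NmatNpat animal 4 reached the NmatCpat values, and the difference was 0.68 (95% interval −0.02 to 1.37, limma adjusted p = 0.983, exact permutation p = 0.114). It was called in 6 of 18 alternative settings. DDX21, a nucleolar helicase, was the only gene of the list without overlap, at 0.42 (95% interval −0.04 to 0.87). That was 1 of the 35, where 2.84% of all genes had no overlap.

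Proteins of the mitochondrial ribosome (67 measured) had 43 higher and 24 lower, with a median of 0.05. Of the 67, 1 was called, where 2.91% of all genes were. This was MRPS7, a small subunit protein, which read 7.14, 7.08, 7.25 and 7.14 in the NmatCpat lambs and 6.60, 6.02, 6.68 and 6.96 in the NmatNpat lambs. The NmatCpat lambs were tightly grouped above all NmatNpat lambs, and the difference was 0.59 (95% interval 0.08 to 1.10), just past the 1.5-fold threshold, with an unadjusted P of 0.0293 and a limma adjusted p of 0.983. MRPL11, of the large mitochondrial subunit, differed by 0.55 (95% interval 0.10 to 0.998) without overlap, below 1.5-fold. These were the 2 of the 67 without overlap, where 2.84% of all genes had no overlap. In 18 alternative settings MRPS7 was called in 9 and MRPL11 in 3.

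**Figure D5:**
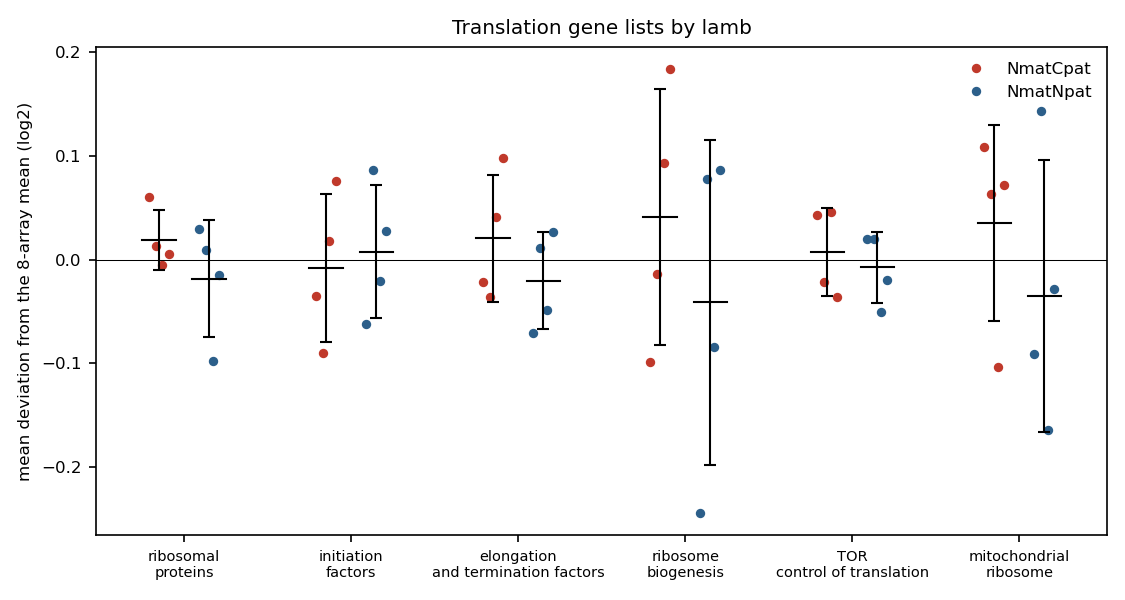
The mean deviation of each lamb from the mean of the 8 arrays is plotted for the ribosomal protein genes and the 5 other translation lists, with points for lambs and bars for the mean and 1 SD of each genotype (n = 4). The genotypes overlap in every list, and the ribosomal protein genes span −0.10 to 0.06.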

How the data were processed

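Total RNA from perirenal adipose tissue of 8 lambs was hybridised by the authors to Affymetrix Bovine Genome Arrays. The deposited intensity values, 24128 probe sets per array on a linear scale, came from MAS5 (version not given in the sources read). Columns were assigned by sample titles. Here the deposited intensities were converted to log2 and quantile-normalized over the 8 arrays, 112 control probe sets were left out, and limma 3.58.1 in R 4.3.3 (lmFit, eBayes, no covariate) was fitted to all 24016, with Benjamini-Hochberg adjustment over them. Probe sets with exactly 1 symbol in the platform annotation numbered 13292. For single values, two-sided exact permutation tests ran over 70 arrangements of the lambs, whose smallest p is 0.0286. The lambs are separate animals, and their number limits the precision of every value. The code was tested on simulated data.

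The members and lists were chosen with earlier results of these data known, and RPL7L1 also from the study. Named were members with set roles, all paralogues, members called or without overlap, the 5 with the smallest P in each direction, the 4 with the largest SD and RPL7L1, and in each of the 5 pathway lists the called genes and the one with the smallest P. In addition, RPL7, RPL14, RPL26, RPL34, RPS27, a few other members, and EIF3K, DDX21 and RPS6KB1, whose genotypes did not overlap, are given for comparison, chosen after their values were seen. Alternatives covered the variance model, array weights, normalization, offset, filters on probe sets, averaging of probe sets, animal number as a block, and leaving out lambs. No coordinates or sequences were used.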

Additional observations from a re-analysis of the deposited data

Results flagged for a closer look

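Of 64 groups of 4 lambs examined among the named genes, 4 held 1 lamb far from the other 3, with a gap that took more of the group's range than Dixon's critical value at the 95% level allows, and chance gives about 1 in 20. RPL26L1 was 8.85 in NmatNpat animal 4 beside 8.42 to 8.47 in the other 3 NmatNpat lambs. RPL7L1 was 5.94 in NmatCpat animal 3, on its brightest probe set, beside 6.47 to 6.57 in the other 3. RPL13 was 13.25 in NmatCpat animal 3 beside 13.36 to 13.38 in the other 3. RPL11 was 13.56 in NmatCpat animal 4 beside 13.52 to 13.53 in the other 3, a gap smaller than 0.1.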

How the results depend on the processing

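No ribosomal protein gene was called under any alternative except 2. With the probe sets of each gene averaged, 1 was called, RPL7L1, and leaving out 1 lamb at a time gave 0 to 1, the 1 being RPL3L without NmatCpat animal 1. The member probe sets called, 2 in all, numbered 1 without moderated variances, 1 with a trended variance, 0 among probe sets above the median level (89 of 99 remained), 1 without NmatNpat animal 1 and NmatCpat animal 4, and 1 to 4 with 1 lamb left out, 4 without NmatCpat animal 1 and 1 without NmatNpat animal 3 or 4. The dimmest RPL7L1 set was called in 17 of 17 alternatives and the second in 10 of 17. Their mean levels, 3.27 and 4.41, lie below the median of all probe sets. The filter on that median left them out and is not among the 17. Members with P of at most 0.05 at any fold were 4 without moderated variances and 2 with a trended variance (both chosen after seeing the data), 2 among probe sets above the median level, and 0 to 1 with 1 lamb left out, the 1 without NmatCpat animal 1 or NmatNpat animal 4. The median difference, 0.02, was −0.0029 with cyclic loess and 0.0088 to 0.0538 otherwise, in each case within 0.0447, the SD between lambs, of the value given.

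Differences near 0 changed sign. With cyclic loess FAU was −0.0114 and RPL5 −0.0114. With median-centred arrays RPL3 was 0.0090, RPLP2 0.0070, RPS27L 0.0029 and RPS3 0.0141. Without NmatNpat animal 1 and NmatCpat animal 4, RPL37 was 0.115, RPL38 0.0061, RPLP0 −0.0109, RPLP2 0.0583 and RPS27L 0.0060. With 1 lamb left out at a time, RPL37 ranged from −0.336 to 0.0911, RPL5 from −0.0119 to 0.0334, RPL7L1 from −0.0117 to 0.414, RPLP2 from −0.0631 to 0.0344, RPS27L from −0.108 to 0.0073 and RPS3 from −0.0422 to 0.0034. The cause was not tested.

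Deviations of same-numbered lambs correlated weakly, at 0.0388, 0.0054, 0.0480 and −0.0131. The NmatNpat lamb that correlated best was the same-numbered one for NmatCpat animals 1, 2 and 3, and animal 3 for NmatCpat animal 4. Values this close to 0 cannot decide whether the numbers pair the lambs. With animal number as a replicate block the median stayed at 0.02, with 0 genes and 2 probe sets called.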

Other observations

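Of the marker lists of other cell types, the lymphocyte list (13 measured of 18) had 2 genes higher and 11 lower in NmatCpat, none called, with a median log2 difference of −0.19. Endothelium markers (9 measured of 10) had a median of 0.08 and none called, and markers of dividing cells (14 measured of 17) one of −0.13 and none called. Red cell markers (6 measured of 9) had a median of 0.25 with 1 called higher, where 2.91% of all genes were called in either direction. Against the same share, neuron markers had 1 called lower and a median of −1.37, and skeletal muscle markers none called and a median of 0.37, both lists with the 2 arrays that stood apart. Fat cell markers had a median of 0.07, macrophage markers 0.0061 and fibroblast markers −0.02, with none called in the 3 lists.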
